A study of Mus musculus with 6 samples.

Results

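The genes described here are 10 genes that hepatocytes use at different places in the liver lobule. They were chosen by symbol from the 20140 genes listed for whole mouse liver, 7 as pericentral (Glul, Oat, Axin2, Lgr5, Tbx3, Rhbg and Slc1a2) and 3 as periportal (Hal, Sds and Cyp2f2). All 10 passed the filter on low counts and were among the 16370 genes tested. Bulk RNA came from 6 livers taken on day 21, of which each of 3 groups had 2. The sham livers (titled control) came from mice given PBS in place of tumor cells. The intra-C and intra-S livers came from mice given CT26, a colorectal carcinoma line of BALB/c origin. The labels do not spell out these names. From the models that the study describes, intra-C was taken as CT26 implanted in the cecum, the premetastatic setting, and intra-S as CT26 injected into the spleen, the metastatic setting. BALB/c is the strain of those models, and no genetic change or further treatment is given for any of these mice. Sex and exact age are not tied to single livers. The route of injection and the disease stage therefore changed together, and reads of CT26 cells in a liver would be counted with those of the host. All values come from polyadenylated RNA of whole liver, so that fewer cells of a type and less RNA per cell cannot be told apart.

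Blood enters the lobule at the portal tract and leaves through the central vein, and hepatocytes along this path divide the work of the liver between them. Endothelial cells of the central vein release Wnt ligands and R-spondin, which keep β-catenin active in the hepatocytes next to them and so sustain the pericentral genes. Periportal hepatocytes, which receive blood rich in oxygen and nutrients, carry much of amino acid breakdown, ureagenesis and gluconeogenesis.

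The libraries held between 32838321 and 43368309 counts, and levels are given as CPM, counts scaled to library totals, after TMM scaling. A count of 0 still allows 3 counts, which stand for 0.0679 to 0.0928 CPM, counting error only. Differences were fitted by edgeR (quasi-likelihood test) in 1 model of the 6 livers, and a gene was called at a Benjamini-Hochberg adjusted p under 0.05 over all genes tested. No relabelling of 2 livers against 2 could reach a permutation p under 0.05, and nothing states how the livers of a group were housed or handled, so p-values measure the spread between these livers only. Both comparisons with sham use the same 2 sham livers. Among the genes at a mean of at least 1 CPM, 3.76% differed over 2-fold from sham liver 1 to sham liver 2, 6.26% from one intra-C liver to the other and 21.6% from one intra-S liver to the other. Hepatocyte transcripts were abundant in every liver. Albumin (Alb) stood at 94260 and 87423 CPM in sham livers, 120678 and 84369 CPM in the intra-C livers and 156594 and 108439 CPM in the intra-S livers.

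RefSeq promoters (build GRCm38.p6) were found for 6 of the 10 genes, namely Glul, Oat, Axin2, Slc1a2, Hal and Cyp2f2. The 250 bases before the annotated start are printed for 4 of them, each 5′ to 3′ on the strand of its gene. Cyp2f2 is shown because it was the called gene of the 10, Glul because its level varied least, and Slc1a2 and Hal because they hold the motif matches. Capitals mark words of TCF/LEF, the partners of β-catenin, searched as CTTTGAA or CTTTGAT, and of C/EBP, a hepatocyte factor family, searched as TTGCNNAA, on both strands.
Cyp2f2, chr7:27119705-27119954, plus strand: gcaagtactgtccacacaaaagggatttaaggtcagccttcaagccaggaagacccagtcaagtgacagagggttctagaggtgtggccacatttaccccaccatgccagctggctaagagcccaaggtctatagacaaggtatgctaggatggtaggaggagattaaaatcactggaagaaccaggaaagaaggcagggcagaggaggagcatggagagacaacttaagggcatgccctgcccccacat
Glul, chr1:153899679-153899928, plus strand: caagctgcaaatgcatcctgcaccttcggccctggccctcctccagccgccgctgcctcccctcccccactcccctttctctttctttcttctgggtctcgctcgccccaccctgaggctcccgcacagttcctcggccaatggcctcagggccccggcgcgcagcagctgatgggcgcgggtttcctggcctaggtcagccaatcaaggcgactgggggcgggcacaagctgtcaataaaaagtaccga
Slc1a2, chr2:102706188-102706437, plus strand: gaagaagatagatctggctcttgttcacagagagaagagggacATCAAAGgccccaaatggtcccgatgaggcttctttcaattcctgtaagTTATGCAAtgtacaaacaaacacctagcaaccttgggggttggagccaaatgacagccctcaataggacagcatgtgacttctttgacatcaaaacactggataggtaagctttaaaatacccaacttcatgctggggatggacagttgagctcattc
Hal, chr10:93488518-93488767, plus strand: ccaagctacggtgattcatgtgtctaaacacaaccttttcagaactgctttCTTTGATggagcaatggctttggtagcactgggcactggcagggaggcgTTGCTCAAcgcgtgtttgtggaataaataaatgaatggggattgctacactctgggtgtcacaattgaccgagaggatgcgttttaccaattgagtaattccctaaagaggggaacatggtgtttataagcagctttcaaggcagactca
The Slc1a2 window lies inside the span annotated for the gene, before one of its starts. The TCF/LEF word of Slc1a2 stood 207 to 201 bases before the start on the minus strand, and that of Hal, a periportal gene, 199 to 193 bases before it on the plus strand. A C/EBP word followed at 158 to 151 bases in Slc1a2, on the minus strand, and at 150 to 143 bases in Hal. None of these words, nor the STAT word TTCNNNGAA or the HNF4 word CAAAGTCCA, was in the other windows of the 6, and the STAT and HNF4 words were in none of the 6. Of 32851 mouse promoter windows of this length, 7.48% held a TCF/LEF word, 9.56% a C/EBP word, 7.02% a STAT word and 0.384% an HNF4 word. A match is a stretch of letters and says nothing about binding.

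One of the 10 genes was called in each comparison with sham, and it was Cyp2f2, the periportal gene, lower both times. This was 1 of 10, or 1 of 3 periportal genes, where 2.38% of all genes tested were called lower in the intra-C livers and 3.95% in the intra-S livers. No pericentral gene was called in either direction, where 4.92% and 6.78% of all genes were called higher. Between intra-S and intra-C livers 0 of the 10 were called, as were 0 of all 16370 genes (0% higher and 0% lower). The smallest adjusted p over all genes in that comparison was 0.113, while an unadjusted p under 0.05 was reached by 6.99% of genes upward and 6.41% downward, and DESeq2 called 234 genes higher and 272 lower, Slc1a2 among the lower (-1.09). Without intra-S liver 2 the quasi-likelihood test called 6 of the 10, with Oat (1.96), Tbx3 (2.72) and Hal (1.56) higher and Lgr5 (-4.58), Rhbg (-1.56) and Slc1a2 (-1.42) lower in the remaining intra-S liver on the log2 scale, where 7.53% of all genes were called higher and 9.02% lower. Without intra-S liver 1 it called 0 of the 10, and 0.137% and 0.176% of all genes.

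**Figure D1:**
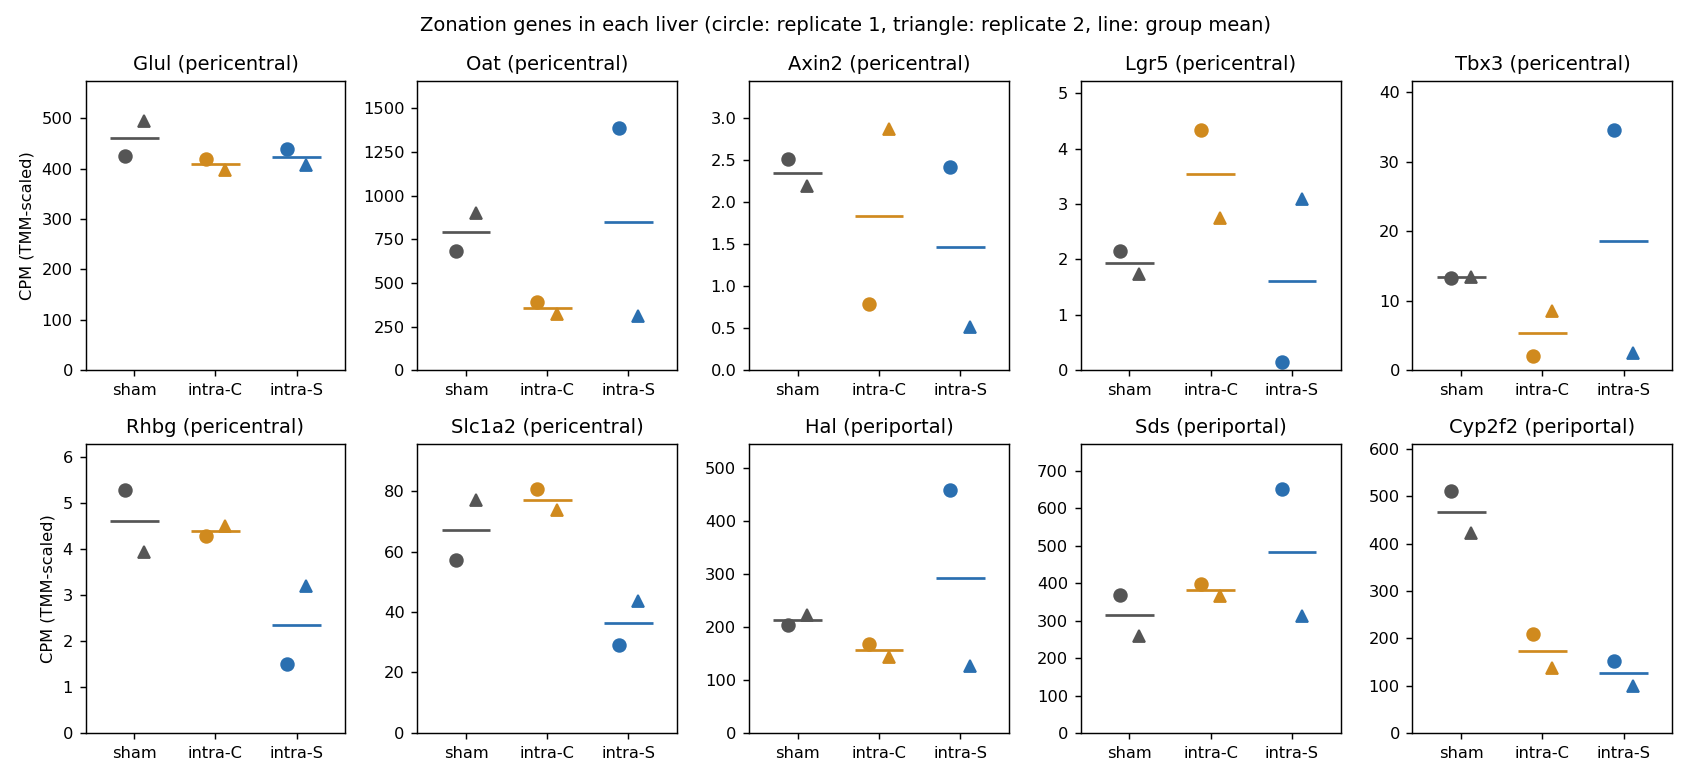
CPM of the 10 zonation genes in each of the 6 livers, by group, with a linear axis from 0 for each gene. Circles are replicate 1, triangles replicate 2 and lines the mean of the 2 livers. The livers of the intra-C and intra-S groups lie below both sham livers for Cyp2f2, while the intra-S livers lie far apart for Oat, Axin2, Lgr5, Tbx3 and Hal.

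Glul (chr1:153899929-153909723) encodes glutamine synthetase, which joins ammonium to glutamate in the hepatocytes that surround the central vein. Its level was 426 and 494 CPM in sham livers, 420 and 398 CPM in the intra-C livers, and 438 and 407 CPM in the intra-S livers. The intra-C livers were just below both sham livers, the intra-S livers overlapped them, and all 6 lay between 398 and 494 CPM. The log2 fold change was -0.17 (SE 0.20, adjusted p = 0.632) in the intra-C livers, with a 95% interval of -0.65 to 0.31. In the intra-S livers it was -0.12 (SE 0.20, adjusted p = 0.719), with an interval of -0.60 to 0.36. Per gene length, in deposited TPM, the livers of both CT26 groups were below both sham livers (286 and 289, then 276 and 275, against 342 and 395). Without TMM the log2 fold changes against sham were -0.43 and -0.40, and with limma on log2(TPM + 1) -0.35 and -0.42, none of them called. Of the 10 genes Glul had the closest intra-S livers, 1.08-fold apart.

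Oat (chr7:132557475-132576398), the mitochondrial aminotransferase that converts ornithine, was at 682 and 901 CPM in sham livers. It was at 389 and 322 CPM in the intra-C livers, and at 1386 and 310 CPM in the intra-S livers. The intra-C livers lay below both sham livers, whereas one intra-S liver was the highest of the 6 and the other the lowest. The log2 fold change was -1.15 (SE 0.63, adjusted p = 0.291) in the intra-C livers and 0.10 (SE 0.62, adjusted p = 0.932) in the intra-S livers. Without intra-S liver 1 in the fit the latter was -1.35, and without intra-S liver 2 it was 0.81.

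Rhbg and Slc1a2 encode transporters of the pericentral hepatocyte, for ammonium and for glutamate. Slc1a2 (chr2:102658239-102790784) was at 57.3 and 76.9 CPM in sham livers, 80.6 and 73.8 CPM in the intra-C livers, and 28.9 and 43.5 CPM in the intra-S livers. Both intra-S livers were thus below the 4 others, and the intra-C livers overlapped the sham livers. Its log2 fold change in the intra-S livers was -0.89 against sham (SE 0.27, adjusted p = 0.0855, interval -1.54 to -0.24), which missed the threshold. Against the intra-C livers it was -1.09 (SE 0.27, unadjusted p = 0.00591, adjusted p = 0.285). DESeq2 called Slc1a2 lower in both of these comparisons, with adjusted p-values of 0.0328 and 0.03. Over the alternatives the edgeR, limma or DESeq2 adjusted p lay between 0.00732 and 0.433 against sham and between 0.00835 and 0.76 against intra-C.

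Rhbg (chr3:88242874-88254739) was at 5.27 and 3.94 CPM in sham livers, 4.28 and 4.49 CPM in the intra-C livers, and 1.49 and 3.19 CPM in the intra-S livers. As for Slc1a2, the intra-S livers were the lowest of the 6, though the levels rested on only 51 and 130 counts. The log2 fold change against sham was -0.97 (SE 0.42, adjusted p = 0.179) in the intra-S livers and -0.07 (SE 0.41, adjusted p = 0.933) in the intra-C livers.

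Axin2, Lgr5 and Tbx3 are targets of β-catenin in pericentral hepatocytes. Axin2 (chr11:108917828-108950783), a scaffold that feeds back on β-catenin, was at 2.51 and 2.20 CPM in sham livers. It was at 0.789 and 2.88 CPM in the intra-C livers and at 2.42 and 0.515 CPM in the intra-S livers. In each of the CT26 groups one liver was near the sham level and the other lower, and the groups overlapped. The log2 fold changes were -0.37 (SE 0.84, adjusted p = 0.815) in the intra-C livers and -0.69 (SE 0.84, adjusted p = 0.621) in the intra-S livers.

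Lgr5 (chr10:115450314-115587780), a receptor for R-spondins, was at 2.14 and 1.74 CPM in sham livers, 4.33 and 2.75 CPM in the intra-C livers, and 0.146 and 3.09 CPM in the intra-S livers. Both intra-C livers were above the sham livers, while the intra-S livers lay on either side of them. In intra-S liver 1 the level rested on 5 counts, against 126 in intra-S liver 2. The log2 fold changes were 0.87 (SE 1.04, adjusted p = 0.638) and -0.25 (SE 1.04, adjusted p = 0.895).

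Tbx3 (chr5:119670534-119684724), a transcriptional repressor of the T-box family, was at 13.3 and 13.4 CPM in sham livers. It was at 2.06 and 8.51 CPM in the intra-C livers and at 34.5 and 2.50 CPM in the intra-S livers. The sham livers were nearly alike, both intra-C livers were below them, and the intra-S livers were above and below. The log2 fold changes were -1.34 (SE 1.12, adjusted p = 0.486) in the intra-C livers and 0.47 (SE 1.09, adjusted p = 0.807) in the intra-S livers, the latter turning to -2.41 without intra-S liver 1. The former was -2.67 without intra-C liver 2 and -0.65 without intra-C liver 1.

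Of the periportal genes, Cyp2f2 (chr7:27119955-27133660) encodes a cytochrome P450 that is also known from airway club cells, where it activates naphthalene. Its level was 511 and 423 CPM in sham livers, 208 and 136 CPM in the intra-C livers, and 153 and 99.1 CPM in the intra-S livers. All 4 livers of the CT26 groups were below both sham livers, and the 2 CT26 groups overlapped each other. As group means this was 467 ± 61.8 CPM (SD, n = 2), 172 ± 50.8 CPM and 126 ± 37.9 CPM. Cyp2f2 was 2.71-fold lower in the intra-C livers (log2 fold change -1.44, SE 0.32, adjusted p = 0.0477, interval -2.20 to -0.67). It was 3.71-fold lower in the intra-S livers (log2 fold change -1.89, SE 0.32, adjusted p = 0.021, interval -2.67 to -1.12). The difference between the CT26 groups was -0.45 (SE 0.31, adjusted p = 0.543).

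The call of Cyp2f2 depended on the livers in the fit, though its sign did not. Without any 1 of the 4 sham and intra-C livers the intra-C call was lost, at adjusted p-values between 0.156 and 0.291 and log2 fold changes between -1.77 and -1.14. The intra-S call was lost without sham liver 1 (adjusted p = 0.159), sham liver 2 (0.125) or intra-C liver 2 (0.0513), and with only the intra-S and sham livers in the fit (0.0547). Under the other alternatives Cyp2f2 stayed called, down to an adjusted p of 0.000817 in the intra-C livers and 2.72e-06 in the intra-S livers, both with DESeq2.

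Hal and Sds, the other periportal genes, break down histidine and serine. Hal (chr10:93488768-93516761), histidine ammonia-lyase, was at 205 and 223 CPM in sham livers, 167 and 144 CPM in the intra-C livers, and 459 and 126 CPM in the intra-S livers. The intra-C livers were below both sham livers, and the intra-S livers held the highest and the lowest value of the 6. The log2 fold changes were -0.46 (SE 0.54, adjusted p = 0.633) and 0.45 (SE 0.54, adjusted p = 0.611).

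Sds (chr5:120476547-120483932), serine dehydratase, was at 368 and 260 CPM in sham livers, 398 and 365 CPM in the intra-C livers, and 653 and 313 CPM in the intra-S livers. The 3 groups overlapped, and the highest value was again that of intra-S liver 1. The log2 fold changes were 0.28 (SE 0.37, adjusted p = 0.676) and 0.62 (SE 0.38, adjusted p = 0.317). In the annotation Sds shares 360 exon bases with Plbd2 on the opposite strand, and whether the counting used strand is not stated.

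**Figure D2:**
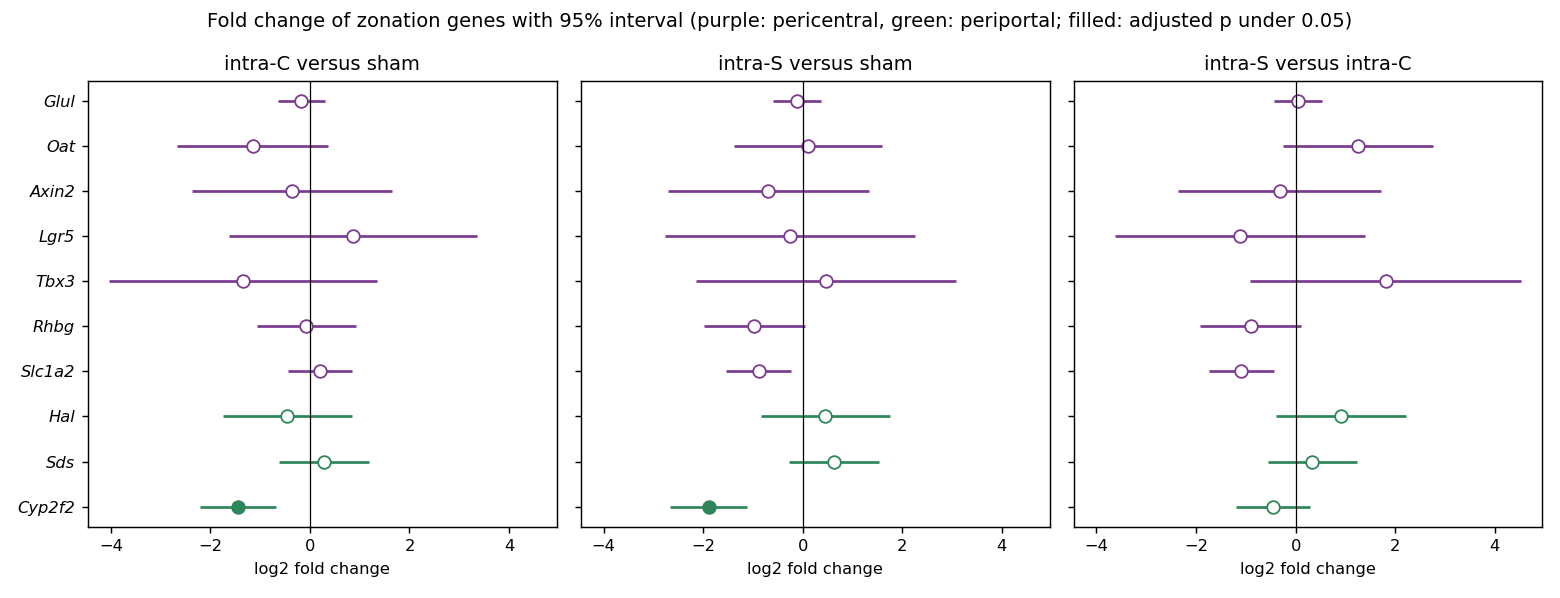
Log2 fold change of the 10 zonation genes in the 3 comparisons, with bars for the 95% interval of edgeR's fit. Filled points passed an adjusted p of 0.05, which only Cyp2f2 did, at -1.44 and -1.89 against sham. The intervals of Glul are the narrowest, at -0.65 to 0.31 and -0.60 to 0.36, and those of Tbx3 and Lgr5 among the widest.

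Without regard to the test, the intra-C livers did not overlap the sham livers for 6 of the 10 genes. Lgr5 was higher and Glul, Oat, Tbx3, Hal and Cyp2f2 were lower. Of all genes tested, 34.4% were higher and 34% lower without overlap. The intra-S livers did not overlap the sham livers for 3 of the 10, namely Rhbg, Slc1a2 and Cyp2f2, all lower, where 30% of all genes were lower without overlap and 30.4% higher. Between the CT26 groups, Rhbg and Slc1a2 were lower in the intra-S livers without overlap, where 21.5% of all genes were, and 21.9% were higher. These counts were not tested.

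The livers of a group lay furthest apart in the intra-S group. Its 2 livers differed 21-fold for Lgr5, 13.8-fold for Tbx3, 4.70-fold for Axin2 and 4.47-fold for Oat. Hal differed 3.64-fold, Rhbg 2.14-fold and Sds 2.09-fold, and the remaining genes (Slc1a2, Cyp2f2 and Glul) by 1.08- to 1.54-fold. Over 4-fold apart were 4 of the 10 genes, against 5.62% of all genes at a mean of at least 1 CPM, and over 2-fold apart were 7 of the 10, against 21.6%. In the intra-C livers 2 of the 10 were over 2-fold apart, Tbx3 at 4.12-fold and Axin2 at 3.64-fold, and in sham livers 0 were. Oat, Axin2, Tbx3, Hal, Sds and Cyp2f2 were higher in intra-S liver 1 than in intra-S liver 2, as was Glul slightly, and Lgr5, Rhbg and Slc1a2 were lower. With 2 livers this cannot be tied to a condition.

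**Figure D3:**
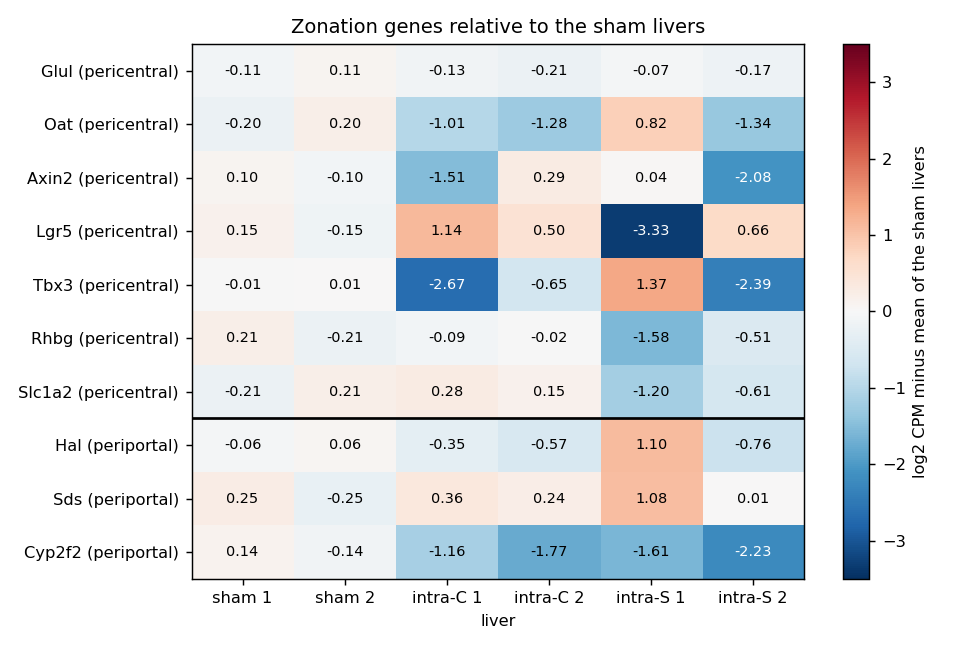
Log2 CPM (prior count 2) of the 10 zonation genes in each of the 6 livers, minus the mean of the sham livers for that gene, with the pericentral genes above the line and the periportal genes below it. Red is above and blue below the sham mean. Cyp2f2 is blue in all 4 livers of the CT26 groups. Intra-S livers 1 and 2 lie on opposite sides of the sham mean for Oat, Axin2 (0.04 and -2.08), Lgr5, Tbx3 and Hal.

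Per gene length, on the deposited TPM scale, the order of the 10 genes in sham livers began with Oat (712 and 938 TPM) and Cyp2f2 (631 and 522 TPM). Sds (564 and 398 TPM) overlapped Cyp2f2, and Glul (342 and 395 TPM) was just below Sds. Hal followed (166 and 180 TPM), then Slc1a2 (9.70 and 13 TPM). Tbx3 (5.79 and 5.84 TPM) and Rhbg (6.03 and 4.49 TPM) overlapped, as did, at the bottom, Axin2 (1.03 and 0.900 TPM) and Lgr5 (1.02 and 0.830 TPM). In the intra-S livers Cyp2f2 stood at 148 and 103 TPM, below Glul at 276 and 275 TPM. The ratio of Glul to Cyp2f2 in TPM was 0.541 and 0.757 in sham livers, 1.31 and 1.89 in the intra-C livers, and 1.86 and 2.67 in the intra-S livers. This ratio was above 1 in the livers of both CT26 groups and below 1 in sham livers. It pairs the gene that varied least with the called gene, so it restates the fall of Cyp2f2. The ratio of the pericentral Oat to the periportal Hal went the other way, from 4.29 and 5.21 in sham livers to 3.00 and 2.88 in the intra-C and 3.89 and 3.17 in the intra-S livers.

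The 10 genes were also summarized as 1 difference. The mean of the 7 pericentral genes minus that of the 3 periportal genes, each as log2 CPM relative to the sham mean, was -0.12 and 0.12 in sham livers, which are equal and opposite by construction. It was -0.19 and 0.52 in the intra-C livers and -0.75 and 0.07 in the intra-S livers, so that the intra-C livers fell on both sides of 0, as did the intra-S livers. The median log2 fold change of the pericentral genes was -0.17 in the intra-C and -0.25 in the intra-S livers, and that of the periportal genes -0.46 and 0.45, beside 0.01 and 0.04 over all genes tested. In the intra-S livers the pericentral median was -0.62 and the periportal median -0.76 without intra-S liver 1, and they were -0.07 and 1.06 without intra-S liver 2. With limma on log2 TPM the periportal median there was -0.12 and -0.13 and the pericentral median -0.46 and -1.10 at the larger and the smaller pseudocount, beside -0.15 and -0.26 over all genes. A block for the replicate number gave a periportal median of 0.25 and a pericentral median of -0.58. In the intra-C livers leaving out 1 liver gave pericentral medians of -0.27 to -0.04.

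The genes with the pattern most like Glul over the 6 livers, out of 9282 genes at a mean of at least 5 CPM, were P2ry4 (Pearson r = 0.965), Pigv (0.963) and Nr1d1 (0.961). Those most like Cyp2f2 were Letm1 (0.999), Vps53 (0.994) and Stard5 (0.992). These are the highest of many correlations over 6 livers in 3 groups, and are given as a description.

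A list held 33 other genes of pericentral hepatocytes, and all were tested. Of these, 10 were called lower and 2 higher in the intra-C livers, beside 2.38% and 4.92% of all genes tested. The median log2 fold change was -0.93. In the intra-S livers 12 were called lower and 1 higher, beside 3.95% and 6.78% of all genes, with a median of -1.10. Cyp1a2, which metabolizes caffeine, was at 1467 and 502 CPM in sham livers, 67.3 and 59.1 CPM in the intra-C livers, and 16.8 and 39.1 CPM in the intra-S livers. Its log2 fold changes were -3.96 (SE 0.64, adjusted p = 0.023) and -5.14 (SE 0.68, adjusted p = 0.0115). Cyp2e1, the ethanol-inducible P450, was at 7687 and 7172 CPM, then 3880 and 3946 CPM, then 2059 and 2607 CPM. It was called in the intra-S livers (log2 fold change -1.67, SE 0.23, adjusted p = 0.0133) and not in the intra-C livers (-0.93, SE 0.23, adjusted p = 0.0626). edgeR's quasi-likelihood test over the 6 livers did not call the difference between these 2 changes.

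The largest other falls of the pericentral list were those of Cyp2a5 (-3.08 in the intra-C and -4.41 in the intra-S livers), Cyp2c50 in the intra-C livers (-2.42) and Aldh1a1, a retinal dehydrogenase, in the intra-S livers (-3.41). Cyp2c and Gstm genes have near-identical relatives that reads can be split between, so that their single values are uncertain. Slc13a3, a dicarboxylate transporter, was higher in both (2.14 and 1.92), and Avpr1a, the vasopressin receptor, in the intra-C livers (1.63). With only the compared groups in the fit, 22 genes of the list were lower in the intra-C livers, as without either intra-S liver, and 12% to 14.2% of all genes were lower at these settings. The fit of the compared groups called 4 lower in the intra-S livers, beside 0.734% of all genes. Without either sham liver 0 were called in either comparison, and the same held for the intra-C comparison without either intra-C liver. Without intra-S liver 1 or 2, 22 and 21 were lower in the intra-S livers, beside 6.93% and 15.4% of all genes. The median of the list lay between -1.19 and -0.86 in the intra-C and between -1.40 and -1.08 in the intra-S livers over the changes of fit, scaling and livers named here.

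Of 28 other periportal genes tested, out of 29 listed, 1 was called higher and 1 lower in the intra-C livers. Of all genes tested, 4.92% were higher and 2.38% lower. The median log2 fold change of the list was -0.09. In the intra-S livers 2 were higher and 3 lower, beside 6.78% and 3.95% of all genes. The median there was 0.19, which turned to -0.36 without intra-S liver 1 and to -0.10 with library totals not scaled by TMM. The higher genes were Itih4, an acute phase protein, at 1268 and 1339 CPM in sham livers, 8591 and 8870 CPM in the intra-C and 2782 and 5062 CPM in the intra-S livers, and Apoa4 in the intra-S livers (10201 and 1099 CPM against 135 and 218 CPM). Agxt, the peroxisomal glyoxylate aminotransferase, was lower in both comparisons (-1.42 and -1.50). Gls2, the liver glutaminase, and Pigr, which carries immunoglobulin A into bile, were lower in the intra-S livers (-1.55 and -1.53), and Gls2 just missed in the intra-C livers (-1.23, adjusted p = 0.05004). The urea cycle genes Ass1 and Cps1 and the gluconeogenic Pck1 were not called. Ass1 was at 2286 and 2510 CPM in sham livers, 1865 and 1081 CPM in the intra-C and 2904 and 814 CPM in the intra-S livers. Cps1 was at 3585 and 3351, then 6072 and 4272, then 5716 and 2235 CPM, and Pck1 at 3764 and 2880, then 4717 and 2954, then 1894 and 2838 CPM.

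**Figure D4:**
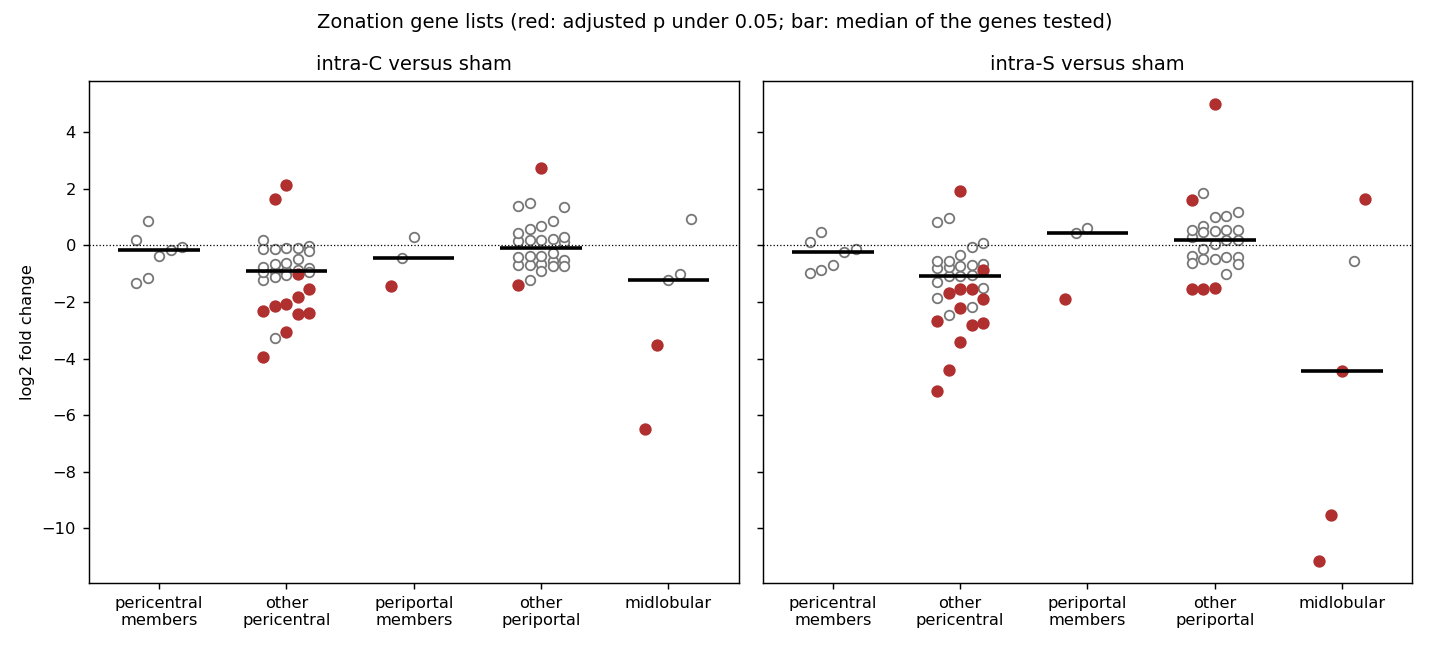
Log2 fold change against sham of the pericentral and periportal genes described here, of 33 other pericentral and 28 other periportal genes, and of 5 midlobular genes. Each point is a gene, red if its adjusted p was under 0.05, and bars are medians. The other pericentral genes have medians of -0.93 and -1.10, the other periportal genes of -0.09 and 0.19.

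Of 5 midlobular genes, 2 were lower in the intra-C livers and 3 lower and 1 higher in the intra-S livers. Of all genes tested, 2.38% were lower in the intra-C livers, and 3.95% lower and 6.78% higher in the intra-S livers. Hamp and Hamp2, near-identical genes of the iron hormone hepcidin, whose reads cannot be fully told apart, were at 537 and 536 and at 503 and 330 CPM in sham livers. Hamp was at 65.3 and 464 CPM in the intra-C livers and at 0.437 and 0.981 CPM in the intra-S livers, and Hamp2 at 2.44 and 6.93 and then 0 and 0.343 CPM. Hamp2 was called lower in both comparisons and Hamp in the intra-S livers. Mup3, a major urinary protein from a family of near-identical genes, was lower in both (-3.51 and -4.43), and Igfbp2, a binding protein of insulin-like growth factors, was higher in the intra-S livers (1.63).

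The genes of the Wnt pathway, which acts upstream of the pericentral genes, were read against all genes tested, of which 7.3% were called in the intra-C and 10.7% in the intra-S livers in either direction. Of 15 Wnt ligands and R-spondins with their secretion factors that were listed, 11 were tested and 0 called in either comparison with sham. Rspo3, the R-spondin of the central vein, was at 4.43 and 4.57 CPM in sham livers, 4.79 and 2.75 CPM in the intra-C livers, and 4 and 4.24 CPM in the intra-S livers. Wnt2 was at 1.28 and 1.47, then 2.93 and 3.25, then 0.787 and 2.36 CPM. Wnt9b was at 0 and 0.136 CPM in sham livers, 0.815 and 0.712 CPM in the intra-C and 0.467 and 0.294 CPM in the intra-S livers, and was not called. Ctnnb1, which encodes β-catenin, was at 151 and 154, then 202 and 236, then 173 and 195 CPM and was not called. Rspo3 lay on either side of the sham livers in the intra-C group and below both in the intra-S group, with no call, and Ctnnb1 was above both sham livers in all 4 livers of the CT26 groups.

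Among 22 receptors and transducers tested, Fzd8, a Frizzled receptor, was the only one called. It was at 10.8 and 15.4 CPM in sham livers, 4.53 and 3.31 CPM in the intra-C livers, and 4.90 and 4.22 CPM in the intra-S livers (log2 fold changes -1.74, adjusted p = 0.0286, and -1.52, adjusted p = 0.0308). Of 10 feedback and target genes, Notum, a secreted enzyme that inactivates Wnt ligands, was lower in both comparisons, and Rnf43, a ligase that removes Frizzled receptors, in the intra-C livers. Notum was at 38.0 and 36.1 CPM in sham livers, 15.4 and 12.3 CPM in the intra-C livers, and 17.6 and 14.5 CPM in the intra-S livers (-1.42, adjusted p = 0.019, and -1.21, adjusted p = 0.0223). Rnf43 was at 7.64 and 8.78, then 2.50 and 3.59, then 4.05 and 4.05 CPM (-1.43, adjusted p = 0.0403, and -1.02, adjusted p = 0.0732). Of 5 secreted inhibitors tested, Dkk3 was higher in the intra-S livers (2.28, adjusted p = 0.0153) and just missed the threshold in the intra-C livers (1.47, adjusted p = 0.0504). Median log2 fold changes of the feedback genes were -0.55 and -0.49, and those of the receptors and transducers 0.21 and 0.37.

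**Figure D5:**
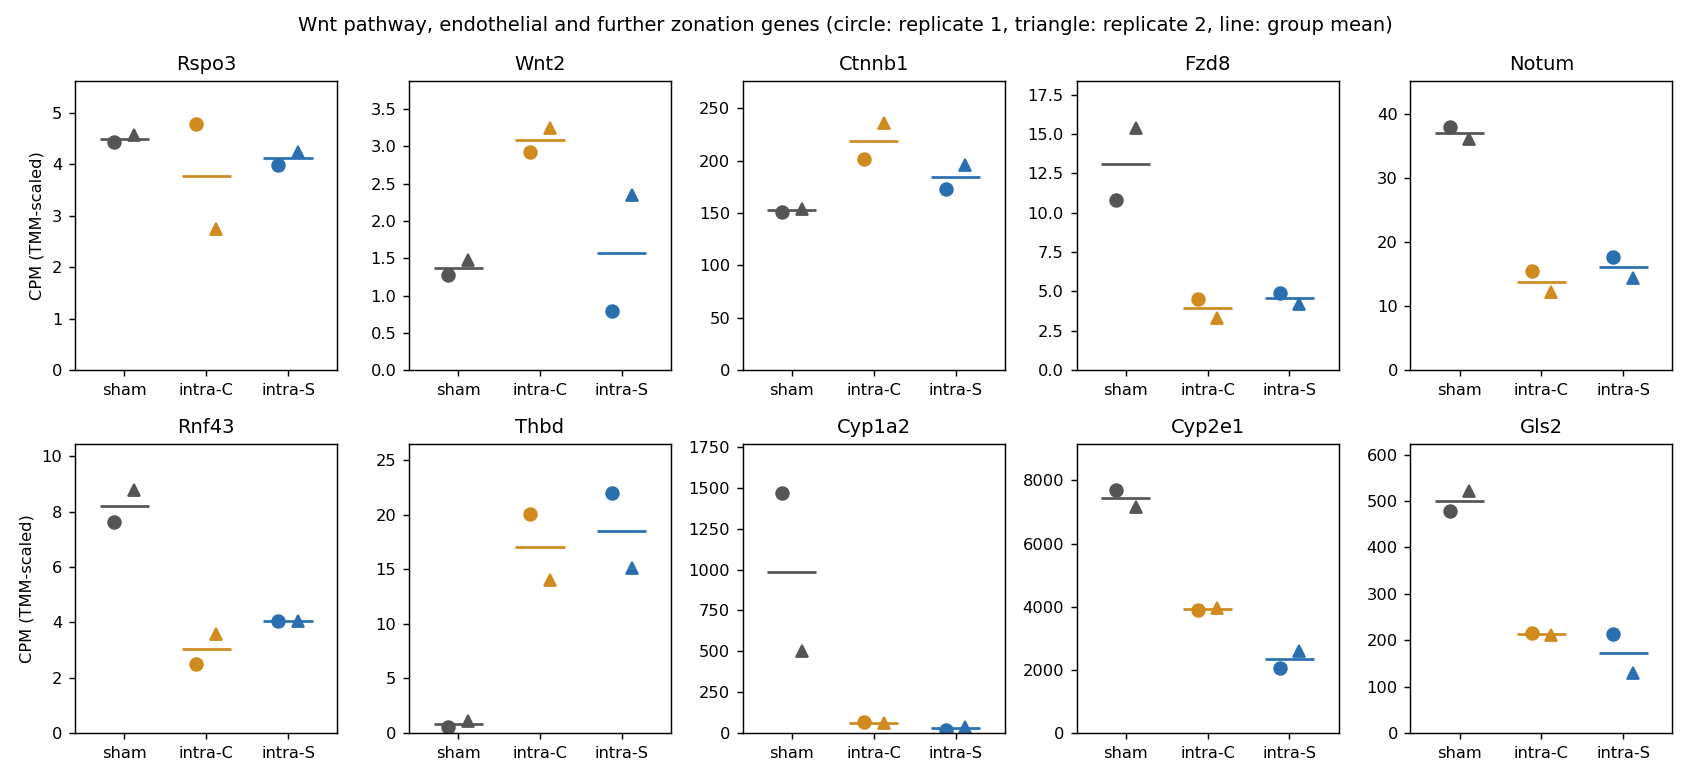
CPM in each of the 6 livers of Wnt pathway genes (Rspo3, Wnt2, Ctnnb1, Fzd8, Notum, Rnf43), the endothelial gene Thbd, the pericentral genes Cyp1a2 and Cyp2e1 and the periportal gene Gls2, with linear axes from 0. Circles are replicate 1, triangles replicate 2 and lines group means. Notum and Fzd8 are lower in all 4 livers of the CT26 groups than in both sham livers, and Rspo3 is not.

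The zonation enzymes share their substrates with further genes. Of 16 genes of glutamine, glutamate and ammonium handling tested, 1 was higher and 1 lower in the intra-C livers, and 5 were higher and 2 lower in the intra-S livers. Of all genes tested, 4.92% were higher and 2.38% lower in the intra-C livers, and 6.78% and 3.95% in the intra-S livers. Car5a, the mitochondrial carbonic anhydrase of ureagenesis, was lower in both (-1.71 and -2.43). Slc38a2, a glutamine transporter, was higher in the intra-C livers (2.31) and missed in the intra-S livers (1.76, adjusted p = 0.0656). The transporters Slc38a1 (2.79) and Slc1a5 (2.52) were higher in the intra-S livers and missed in the intra-C livers (1.77, adjusted p = 0.066, and 1.60, adjusted p = 0.0672). Of 10 genes of ornithine and proline metabolism, Otc, which makes citrulline, and Aldh4a1, which makes glutamate from proline, were lower in both comparisons (-1.33 and -1.73, -1.17 and -2.15). In the intra-S livers the proline oxidase Prodh was also lower (-2.34).

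Of 6 histidine genes, Amdhd1, which acts downstream of Hal, was lower in both comparisons (-1.43 and -1.65), and Hdc, which makes histamine, was higher in both (1.62 and 1.67). Of 13 genes of serine, threonine and glycine tested, 3 were lower in the intra-C livers and 2 higher and 5 lower in the intra-S livers. Of all genes tested, 2.38% were lower in the intra-C livers, and 6.78% higher and 3.95% lower in the intra-S livers. Shmt1 (-1.42 and -1.41) and Gcat (-1.27 and -1.22), which handle glycine, were lower in both, as was Agxt above. Amt (-1.69) and Srr (-1.48) were lower in the intra-S livers, where the serine synthesis enzymes Phgdh (4.63) and Psat1 (3.95) were higher. Phgdh was at 0.246 and 0.113 CPM in sham livers, 1.02 and 0.464 CPM in the intra-C livers, and 1.43 and 7.56 CPM in the intra-S livers. Psat1 was at 0.296 and 0.407, then 3.41 and 1.61, then 2.77 and 8.17 CPM. For both, intra-S liver 2 was the highest of the 6, and without it the log2 fold changes were 2.98 and 2.96, while without intra-S liver 1 they were 5.39 and 4.53. Both calls were lost without a sham liver or an intra-C liver. All adjusted p-values behind these calls lay in the range of 0.00757 to 0.0491.

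Markers of other cells moved with these comparisons. Against sham, 4.92% of all genes tested were called higher in the intra-C and 6.78% in the intra-S livers. All 8 neutrophil markers were higher in both, and their summed level was 3.84 and 4.89 CPM in sham livers, 254 and 524 CPM in the intra-C and 979 and 368 CPM in the intra-S livers. Of 8 macrophage markers, 8 and 7 were higher, with sums of 155 and 158, then 640 and 848, then 492 and 819 CPM. Of 10 markers of central vein and sinusoidal endothelium, 4 were higher in each, with sums of 81.5 and 92.5, then 239 and 240, then 329 and 203 CPM. These included Thbd (4.39 and 4.52) and Pecam1 (2.25 and 2.40). Of 8 erythroid markers, 0 and 6 were higher, with sums of 230 and 411, then 409 and 259, then 1679 and 1198 CPM. Of 8 hepatocyte markers, 1 and 2 were higher and 0 lower, and their sum was 132377 and 129253, then 194800 and 152336, then 240083 and 191134 CPM. Alb made up most of that sum. The median log2 CPM of the 8 hepatocyte markers was 11.95 and 12.02, then 12.09 and 12.01, then 12.08 and 11.87. No neutrophil, macrophage or hepatocyte marker was at 0 in any liver. The part of these markers in the levels of Cyp2f2 and the other zonation genes was not tested.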

How the data were processed

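Bulk RNA-seq of 6 livers was analyzed, 2 per group, grouped by the sample labels. The authors aligned reads to mm10 with HISAT2 2.1.0 and deposited raw counts of uniquely aligned exon reads from featureCounts (Subread 2.0.6), without normalization. They also deposited TPM values, computed from these counts and gene lengths. The gene annotation and the strand setting are not given in the sources used here.

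Counts were tested with edgeR 4.0.16 in R 4.3.3 (TMM, filterByExpr with a count minimum of 10, quasi-likelihood test over all 6 livers, Benjamini-Hochberg over 16370 genes). Log2 CPM values used a prior count of 2. Alternatives were no filter, a minimum of 10 counts in each liver, a fit of the compared groups alone, the replicate number as a block, no TMM, TMM without the 100 most abundant genes, a robust spread, limma 3.58.1 on log2(TPM + 1) and log2(TPM + 0.1), DESeq2 1.42.0, and each liver left out in turn. Where a liver was left out, the lone liver of its group was assumed to vary like the other groups. On simulated counts for intra-C versus sham (15884 genes), the procedure recovered 75% of genes changed 4-fold and 95% of those changed 16-fold. Of its 182 calls, 6.59% were false. These shares cover no change under 4-fold, such as that of Cyp2f2 (2.71-fold), and no comparison with the intra-S livers.

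The 10 genes and the 24 lists, written from general knowledge, were chosen with earlier results of these data known. From each list and comparison with sham, the text names at most 3 called genes in each direction, those that changed most among genes with a mean of at least 1 CPM, markers of other cells only in part. Wnt2, Wnt9b, Rspo3, Ctnnb1, Cyp2e1, Cyp1a2, Ass1, Cps1, Pck1 and Alb were always named. Thbd and Pecam1 were named after their values were seen. Some genes that the rule covers are not reported here. The order of the 10 genes, promoters and gene coordinates were taken from the files and RefSeq (GRCm38.p6, the same assembly as mm10), and figures were drawn with Python 3.11.15.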

Additional observations from a re-analysis of the deposited data

How the results depend on the processing

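Of the 24 called genes of intra-C versus sham whose fold changes were refitted, 21 to 24 stayed called under each alternative that kept the 4 compared livers. Without a sham liver, or without intra-C liver 1 or 2, at most 1 stayed called. Of 38 such genes in intra-S versus sham, 31 to 38 stayed called when all 6 livers were fitted together, 10 with only the compared groups, 17 and 14 without intra-C liver 1 or 2, all 38 without intra-S liver 1 or 2, and 0 without a sham liver. None of these calls changed sign under any alternative run. Without TMM the median of all genes tested shifted to -0.25 in the intra-C and -0.23 in the intra-S comparison. The cause of these differences was not tested.

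Over all genes, 806 were higher and 389 lower in intra-C than in sham livers. These counts became 2548 and 2223 with only the compared groups, 1662 and 1049 with DESeq2, and 497 and 896 with limma on log2(TPM + 1). With limma on log2(TPM + 0.1) 890 were lower, and without TMM 801. Leaving out 1 liver gave 0 to 2546 and 0 to 2112. In intra-S against sham livers, 1110 and 646 became 276 and 116 with only the compared groups, 2003 and 1397 with DESeq2, and 685 and 1553 with limma on log2(TPM + 1). With log2(TPM + 0.1) 1476 were lower, and without TMM 1115. Leaving out 1 liver gave 0 to 3010 and 0 to 2683. In intra-S against intra-C livers 0 and 0 became 234 and 272 with DESeq2, and leaving out 1 liver gave 0 to 1312 and 0 to 1572.

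Livers of the same replicate number showed no shared shift across the groups. This cannot tell whether they were handled together. The correlation of replicate 1 minus replicate 2 was -0.032 between sham and intra-C, 0.0827 between sham and intra-S and 0.0428 between intra-C and intra-S. With the replicate number as a block, 673 genes were higher and 259 lower in intra-C, and 954 and 553 in intra-S, against sham. Cyp2f2 stayed called in both, and Oat turned to -0.16 in intra-S against sham.

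Of the zonation genes, Cyp2f2 kept its sign everywhere. Uncalled fold changes against sham that changed sign, besides those of single livers, were those in the intra-S livers of Oat (-0.23 without TMM, -0.55 with limma at both pseudocounts), Tbx3 (-0.46 and -0.76 with limma) and Hal (-0.12 and -0.13 with limma), and that of Slc1a2 in the intra-C livers (-0.0613 without TMM). Glul turned to -0.062 and -0.0622 in intra-S against intra-C livers with limma at both pseudocounts. Leaving out 1 liver gave, in intra-S against sham, -1.35 to 0.81 for Oat, -2.18 to 0.0413 for Axin2, -3.70 to 0.67 for Lgr5, -2.41 to 1.37 for Tbx3, -1.63 to -0.52 for Rhbg, -0.76 to 1.10 for Hal and -0.0029 to 1.06 for Sds. In intra-C against sham it gave -1.55 to 0.29 for Axin2 and -0.27 to 0.16 for Rhbg. In intra-S against intra-C it gave -0.20 to 1.96 for Oat, -1.81 to 0.88 for Axin2, -1.07 to 3.15 for Tbx3, -0.31 to 1.56 for Hal, -0.29 to 0.77 for Sds and -0.007 to 0.097 for Glul. Without intra-S liver 2, 3 zonation genes were called higher (Hal, Oat and Sds) and 4 lower (Lgr5, Cyp2f2, Rhbg and Slc1a2) against sham, beside 17.3% and 15.4% of all genes, and without intra-S liver 1, 3 were lower (Hal, Oat and Cyp2f2), beside 6.93%. Hal and Oat joined Cyp2f2 as lower in intra-C with only the compared groups in the fit or without either intra-S liver, settings that called 12% to 14.2% of all genes lower. Of the other genes named in intra-S against sham, leaving out 1 liver gave -4.59 to -2.77 for Aldh1a1, -5.66 to -3.75 for Cyp2a5 and -5.87 to -4.16 for Cyp1a2. It gave 4.91 to 7.09 for Igfbp1, -3.22 to -1.80 for Prodh and -2.12 to -1.03 for Srr. For Amt it gave -2.36 to -1.24, for Apoa4 2.64 to 5.85 and for Slc13a3 1.43 to 2.67. In intra-C against sham it gave 4.06 to 6.998 for Igfbp1, -4.54 to -2.99 for Cyp1a2, 1.39 to 2.89 for Slc38a2 and 1.65 to 2.88 for Slc13a3. With 2 livers per group, and with Axin2, Lgr5 and Rhbg under 6 CPM, small changes were not detectable.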

Other observations

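Among 11 genes of the fasting response, 1 was called, and it was higher in both comparisons with sham. Of all genes tested, 4.92% were higher in the intra-C and 6.78% in the intra-S livers. Igfbp1, a binding protein of insulin-like growth factors that the liver secretes on fasting, was at 71.8 and 20.6 CPM in sham livers. It was at 4473 and 770 CPM in the intra-C livers and at 4209 and 1388 CPM in the intra-S livers (log2 fold changes 5.83, adjusted p = 0.0382, and 5.92, adjusted p = 0.0307). The livers of both CT26 groups were far above the sham livers, and the livers within each of the 3 groups differed several-fold. The median log2 fold change of the 11 genes was 0.09 in the intra-C and -0.49 in the intra-S livers.

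Markers of further cell types were counted in the same way. They stand beside 4.92% and 6.78% of all genes called higher, and 2.38% and 3.95% called lower. Of 9 stellate cell and fibroblast markers, 0 and 2 were higher, and of 5 cholangiocyte markers tested, 0 and 1. Of 9 lymphocyte markers tested, 0 were called in either comparison. Only 1 of 4 intestinal epithelial markers passed the filter, and it was not called. Of 10 proliferation genes, 1 was higher and 1 lower in the intra-C livers, and 5 were higher and 1 lower in the intra-S livers.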
